A study of Mus musculus with 6 samples.

Results

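Th9 cells are CD4 helper T cells that make interleukin 9 (IL-9), and their gene expression on day 3 of culture is described here from the 3 control libraries of a series of 6. The libraries were chosen by their titles, which give the Th9 culture, the control condition and day 3. The remaining 3 libraries, from cells given a lipid, were not analysed here. All 3 control libraries came from wild-type C57BL/6N mice, whose age is not given in the sources used here. Naive CD4 T cells were enriched from spleen with a magnetic kit and kept in medium with 10% serum, 1% antibiotic and antimycotic and 50 µM 2-mercaptoethanol. They were stimulated for 3 days with plate-bound anti-CD3e at 1 µg/ml, which engages the T cell receptor, and soluble anti-CD28 at 1 µg/ml, which gives the costimulatory signal. IL-4 at 10 ng/ml, TGF-beta1 at 2 ng/ml and an antibody against IFN-gamma at 10 µg/ml were present throughout. The series describes 3 independent experiments, so the spread given here is that between such experiments. Each library is a bulk culture that was not sorted for IL-9, so it averages cells that may differ in state.

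Th9 differentiation needs signals from both IL-4 and TGF-beta. IL-4 acts through STAT6 and GATA3, as it does in Th2 cells, and TGF-beta through SMAD proteins, as it does in regulatory T cells and Th17 cells. The transcription factors IRF4 and BATF bind DNA as partners and are needed for Il9 transcription. IL-9 itself is known for its action on mast cells and in allergic inflammation and immunity to worms. CPM values are a gene's count divided by the library total and scaled to 1000000, and serve to follow 1 gene across libraries. TPM values also divide by the length of the gene's annotated exons and serve to compare genes. Values for libraries 1, 2 and 3 are given in that order, and ± is the SD over the 3.

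The libraries held 29528938, 30292992 and 22002050 counts over 23183 gene symbols, of which 14933, 14901 and 14718 had a count. A gene was called detected at 1 CPM or more in every library. This held for 10810 genes, or 46.6% of all symbols, the background against which the shares of gene lists below are read. Detected genes had a median of 28 TPM. A count of 0 allows up to 3 counts, that is 0.102, 0.0990 and 0.136 CPM, for counting error only. Library 3 stood apart. Over the 8440 genes of at least 10 CPM on average, 25 were more than 2-fold above the mean of the other libraries in library 3, against 3 in library 1 and 0 in library 2. Its chi-square per degree of freedom was 13.5 against library 2 and 21.5 against library 1, while libraries 1 and 2 differed by 4.82. All pairs thus differed by more than counting noise.

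All 4 genes that mark the Th9 state were detected, and Il9 was among the most abundant transcripts of the cells. Il9 had 16336, 16145 and 11474 counts, or 553, 533 and 521 CPM. This amounted to 3718, 3626 and 3495 TPM, a mean of 3613 ± 112, which ranked 24 among the 22820 genes with an annotated length. The 3 libraries lay close together, and its CV of 3% compares with a median of 5.67% over genes of at least 10 CPM. Irf4 had 1352, 1369 and 1419 CPM and 1017 ± 23 TPM, rank 132. No other member of the IRF family came near it. Irf8, the closest relative of Irf4, reached 208 ± 8.32 TPM, and within each library the TPM of Irf4 was between 4.78 and 5.04 times that of Irf8. Gata3, the zinc finger factor shared with Th2 cells, had 246, 255 and 279 CPM and 236 ± 14.8 TPM. Batf had 85.5, 84.4 and 95.4 CPM and 227 ± 14.3 TPM. The TPM ranges of Gata3 and Batf overlapped. Library 3 was highest for Irf4, Gata3 and Batf and lowest for Il9, each by less than 1.5-fold. Of a wider list of Th9 cytokines and effectors, 14 of 19 genes were detected, with Tnfrsf4, Ccr8 and Tnfrsf9 next after Il9. Tnfrsf4 is also on the regulatory list and Ccr8 on the Th2 list used below. The median over the whole list was 18.6 TPM, and 7 of the 14 lay above the median detected gene. At 2 CPM in every library 11 passed.

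**Figure D1:**
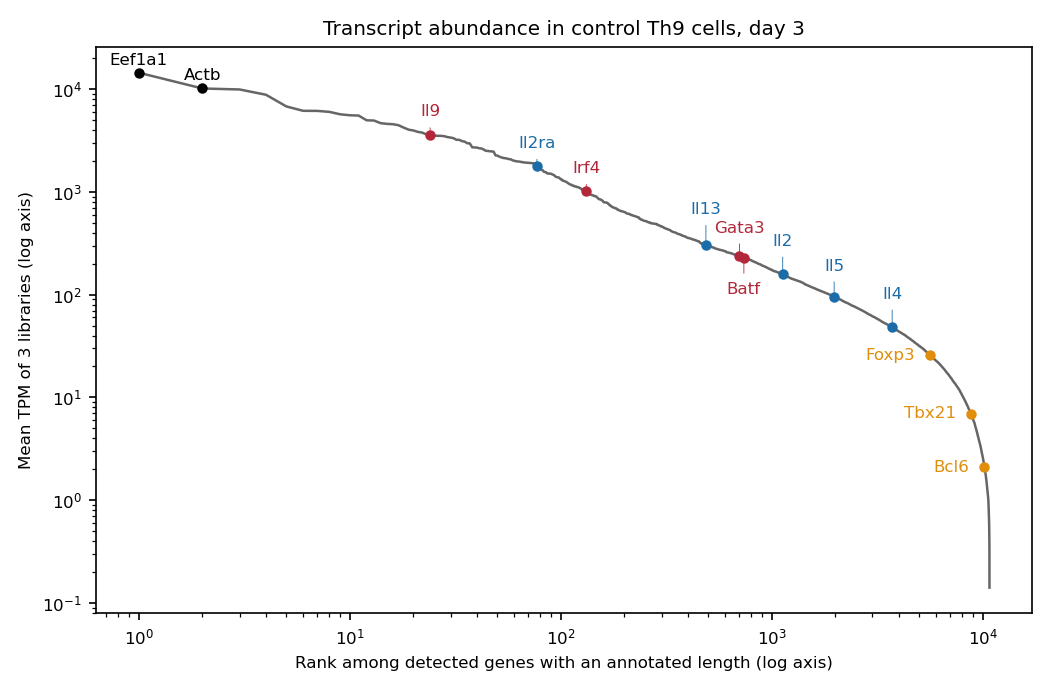
Mean TPM of the 3 control libraries against rank, for detected genes with an annotated length, both axes logarithmic. Red points are the Th9 marker genes, blue points other cytokine genes and Il2ra, orange points the defining factors of other programs and black points the top genes. Il9 lies at rank 24 with 3613 TPM, far above Il13 (304 TPM) and Il4 (48.1 TPM), while Bcl6 lies near the end of the curve at 2.10 TPM.

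Il9 lies on chromosome 13 (56479277 to 56482246, minus strand, GRCm38), and Irf4 on the same chromosome (30749226 to 30766976, plus strand). Gata3 lies on chromosome 2 (9857078 to 9890034, minus strand) and Batf on chromosome 12 (85686669 to 85709087, plus strand). RefSeq promoters of GRCm38.p6 matched 17191 of the 23183 symbols, with 20754 promoters reaching from 250 bases before to 50 bases after the start site. They were searched on both strands for TATAAA, the core of the TATA box, for TGANTCA, the AP-1 type element that BATF and JUN proteins bind, and for the IRF type element, here 2 copies of GAAA with 2 bases between them. TGANTCA reads the same on both strands and was counted once. The 4 genes printed below were chosen because they set the leading cytokines and Irf4 beside a cytokine gene of another program that was nearly absent. The 250 bases before the start site are printed on the gene's own strand, 5′ to 3′, with matches in capitals. They are chr13:56482258-56482507 for Il9 (minus strand), chr13:30748983-30749232 for Irf4 (plus strand), chr11:53634703-53634952 for Il13 (minus strand) and chr1:20730655-20730904 for Il17a (plus strand).
Il9: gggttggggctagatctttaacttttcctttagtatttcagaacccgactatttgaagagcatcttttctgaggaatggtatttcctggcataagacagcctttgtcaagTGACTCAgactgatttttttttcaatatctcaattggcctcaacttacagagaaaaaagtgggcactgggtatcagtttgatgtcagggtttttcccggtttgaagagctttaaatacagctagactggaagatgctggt
Irf4: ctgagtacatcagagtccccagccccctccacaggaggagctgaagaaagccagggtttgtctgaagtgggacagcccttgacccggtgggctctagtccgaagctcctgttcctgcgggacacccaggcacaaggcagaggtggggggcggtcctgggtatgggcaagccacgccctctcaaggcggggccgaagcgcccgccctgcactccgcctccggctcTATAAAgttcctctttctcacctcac
Il13: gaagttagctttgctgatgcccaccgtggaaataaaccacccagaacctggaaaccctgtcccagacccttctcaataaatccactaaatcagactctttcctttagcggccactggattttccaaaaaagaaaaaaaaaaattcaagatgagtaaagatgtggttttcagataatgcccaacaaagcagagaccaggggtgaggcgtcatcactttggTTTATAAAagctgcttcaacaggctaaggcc
Il17a: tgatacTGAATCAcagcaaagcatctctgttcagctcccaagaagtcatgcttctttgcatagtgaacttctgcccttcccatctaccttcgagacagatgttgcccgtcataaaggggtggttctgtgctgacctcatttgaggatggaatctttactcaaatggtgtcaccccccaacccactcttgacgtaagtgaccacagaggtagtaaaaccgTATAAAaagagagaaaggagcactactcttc

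The Il9 promoter held TGANTCA, as TGACTCA, starting 140 bases before the start site, and neither TATAAA nor the IRF type element. Of all promoters searched, 7.29% held TGANTCA, 12.1% TATAAA and 3.34% the IRF type element, at any position and on either strand. TATAAA on the gene's own strand, from -36 to -24 relative to the start site, occurred in 2.28% of all promoters. The Irf4 promoter held TATAAA 26 bases before the start. In the Il13 promoter TATAAA occurred on both strands, in overlapping copies that begin 29 and 31 bases before the start. The promoter of Il17a held TATAAA 31 bases and TGANTCA 244 bases before the start, and yet Il17a had only 14, 0 and 2 counts in the libraries. Neither Gata3 nor Batf had a match. For Gata3 the RefSeq promoter searched (chr2:9878551-9878850) lies inside the gene span given above, whose outer end was not searched. Promoters were found for 13 of the 15 interleukin genes detected. Of their 19 promoters, 5 held TGANTCA (26.3%) and 4 held TATAAA (21.1%). A wider contrast lay between detected and other genes. TATAAA occurred in 6.43% of 10598 promoters of detected genes and in 18.1% of 10156 promoters of the others, and the median GC content was 61% and 51%. Within the window from -36 to -24 on the gene's own strand, the TATAAA shares were 0.802% and 3.83%. A match is a stretch of letters, and binding was not measured.

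The Th2 program also had its cytokines Il13, Il5 and Il4 present, at lower levels than Il9. Bulk libraries cannot tell fewer cells of a type from less RNA per cell. Il13, a cytokine of mucus production and worm expulsion, had 334, 326 and 251 TPM. Il5, which supports eosinophils, had 76, 94.6 and 115 TPM, and Il4 had 47.1, 50.9 and 46.2 TPM. Library 3 was lowest for Il13 and highest for Il5. Within single libraries the TPM of Il9 was 11.1 to 13.9 times that of Il13, 30.3 to 48.9 times that of Il5 and 71.2 to 78.9 times that of Il4. In all, 15 of 20 genes of the Th2 list were detected, with a median of 14.5 TPM over the whole list. Its members Il1rl1, the IL-33 receptor, and Ptgdr2, the prostaglandin D2 receptor CRTH2, stood at 0.246 and 0.142 CPM.

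The Th1 program was low. Tbx21, which encodes its defining factor T-bet, had 180, 141 and 77 counts, or 6.10, 4.65 and 3.50 CPM. Ifng, its cytokine, had 12, 39 and 21 counts and was not detected by the rule, being under 1 CPM in libraries 1 and 3. Within each library the TPM of Gata3 was 25.3 to 49.9 times that of Tbx21. 10 of 17 Th1 genes were detected, led by Il12rb1, a chain of the IL-12 receptor (108 TPM), the chemokine gene Ccl4 (81.6 TPM) and Runx3 (69.5 TPM). The chemokine gene Ccl3 (58.0 TPM) came next. Cxcr3, Ccl5 and Prf1, the perforin gene, stood at 0.333, 0.451 and 0.0977 CPM.

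Cytokines of the Th17 program were nearly absent. Il17f had 61, 24 and 11 counts, Il22 was at 0 in all libraries and Il23r, the receptor chain that sustains Th17 cells, had 1, 0 and 0 counts. Il17a is given above. 11 of 17 genes of the list were detected, and its leading members Batf and Stat3 (135 TPM) also belong to other programs.

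Foxp3, the defining factor of regulatory T cells, was at 32.1, 30.4 and 35.1 CPM. The libraries lay within 1.5-fold of each other, and the TPM of Gata3 was 8.84 to 9.65 times that of Foxp3. 19 of 21 genes of the regulatory list were detected, with a median of 39.2 TPM. They were led by Il2ra, Tnfrsf4, Ctla4 and Tnfrsf18, which activated helper cells also express. Klrg1 was at 0 and Entpd1 at 1.07 CPM. Of the follicular helper list 10 of 16 were detected. Bcl6, its defining factor, had 5.01, 3.90 and 2.77 CPM and Cxcr5, its homing receptor, 14, 5 and 9 counts. The naive and quiescence list held 19 of 21 detected genes, among them Slfn2 (379.8 TPM), Ccr7 (190.4 TPM) and Tcf7 (180 TPM). Klf2, a factor of quiescent T cells, was low at 2.57, 2.84 and 4.50 CPM.

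Markers of T cells were detected in full, and the defining markers of other cell types were at or near 0. 17 of 17 T cell identity genes were detected, with a median of 196 TPM and summed levels of 4608, 4589 and 4597 CPM. Cd4 had 414, 400.0 and 387 TPM, whereas Cd8a had 1, 5 and 3 counts and Cd8b1 1.79, 1.55 and 1.86 CPM. In the CD8 list 2 of 7 were detected, Cd8b1 and Eomes, and in the list of gamma delta and innate T cells 1 of 6, Cd160 at 2.93 CPM. The B cell list had 2 of 10 detected, Cd79b at 3.31 CPM and Ebf1 at 2.09 CPM, with Ms4a1 at 0. Its sum was 5.05 to 7 CPM. Among macrophage and monocyte genes 1 of 15 was detected, Cd68 at 1.33 CPM, and 9 were at 0 in all libraries, C1qa, Cd14 and Fcgr1 among them. The sum was 2 to 2.41 CPM. The NK cell, mast cell and basophil, eosinophil and platelet lists had 0 of 8, 0 of 12, 0 of 7 and 0 of 8 genes detected. Their sums lay between 0.136 and 2.05 CPM. For platelets the count was 1 without library 1. In the neutrophil list 1 of 10 was detected, Cxcr2 at 1.86 CPM, with S100a8, Elane and Mpo at 0. Erythroid genes were at 0 or under 1 CPM apart from Tfrc, the transferrin receptor gene that dividing cells express.

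The dendritic, plasma cell and erythroid lists had higher sums, at means of 172, 176 and 1356 CPM. Of the dendritic cell genes 5 of 14 were detected, with a summed level of 163, 161 and 194 CPM. The highest of them by TPM, Batf3, is also on the list of Th9 transcription factors. The 5 were Batf3, the factor of cross-presenting dendritic cells and a relative of Batf (56.2, 55.4 and 67.1 CPM), Cd74, the invariant chain of MHC class II (62.3, 55.1 and 63.1 CPM), Bst2 (30.8 CPM), H2-Ab1, an MHC class II beta chain (10.8, 15.7 and 28.1 CPM), and Zbtb46 (2.85 CPM). H2-Ab1 was highest in library 3. Its partner chain gene H2-Aa had 0, 1 and 2 counts, and Itgax and Clec9a, which mark dendritic cells, had 1, 0 and 0 and 0, 0 and 0 counts. Flt3 stood at 0.349 CPM. The part of dendritic cells in these values was not tested. In the plasma cell list 2 of 5 were detected, Xbp1 (186 TPM), a factor of the unfolded protein response in many cells, and Sdc1 (6.90 TPM), with Mzb1 at 0 and Jchain at 1, 1 and 1 counts. In the stromal and epithelial lists, Pecam1 at 6.54, 7.23 and 11.5 CPM and Epcam at 1.15, 1.35 and 1.91 CPM were the members detected. Xist, the RNA of the inactive X chromosome, had 2429.6, 2681 and 2844 CPM, and the Y-linked genes Ddx3y, Uty, Kdm5d and Eif2s3y were at 0 in all libraries.

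**Figure D2:**
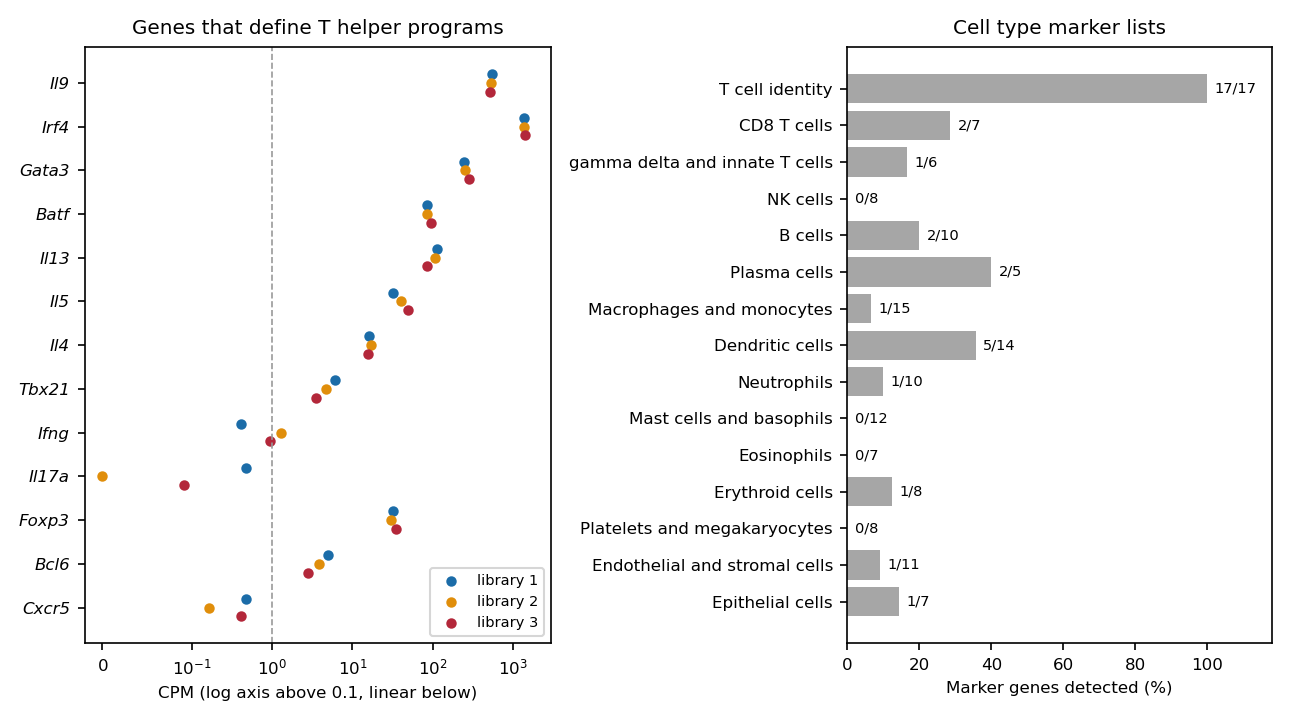
Left, CPM of genes that define T helper programs in each control library (log axis above 0.1 CPM), with a dashed line at 1 CPM. Right, share of marker genes detected in each cell type list, with the number detected over the number in the files. The Th9 markers and Th2 cytokines lie above 10 CPM in every library, Il17a and Cxcr5 below 1 CPM, and the T cell list is the one detected in full.

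Genes of translation, the actin cytoskeleton and protein folding were prominent among the most abundant transcripts. Eef1a1, the elongation factor that brings tRNAs to the ribosome, ranked first with 14418 ± 465 TPM and also had the most counts (9948 CPM). Actb, cytoplasmic beta actin, followed with 10133 ± 705 TPM and Ptma, prothymosin alpha, with 9913 ± 559.6 TPM. The 20 genes of highest TPM included 10 under symbols of ribosomal proteins, among them Rplp1 (8806 TPM), Rplp0 (6132 TPM), Rps2 (5999 TPM), Rps3a1 (5524 TPM) and Rps15 (4967 TPM). The others were Rpl23a (4659 TPM), Rpl4 (4585 TPM), Rpl36 (4552 TPM), Rpl8 (4447 TPM) and the retrogene Rps27rt (4941 TPM). Hsp90ab1 (6776 TPM), Eef2 (6144 TPM), Actg1 (5559 TPM), Npm1 (4215 TPM) and Tmsb4x (4027 TPM) also stood there. The set was completed by Gm15772 (5682 TPM) and Gm12191 (3954 TPM), which are predicted genes. Genes with long transcripts stood higher by counts than by TPM. Scd2, a stearoyl-CoA desaturase of lipid synthesis, was at 2948, 3109.9 and 2855 CPM, Il2ra at 2665, 2829 and 2953 CPM and Xist as given above, all among the 20 with the most counts. Of the lists for these functions, 24 of 24 translation factor genes, 30 of 30 cytoskeleton genes and 29 of 30 chaperone and folding genes were detected, with medians of 877, 467 and 655 TPM. The 10 most counted genes took 5.15% to 5.29% of each library, and 805, 814 and 811 genes together made up 50% of the counts.

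Several of these ribosomal symbols are near-identical copies of another gene, so their levels are uncertain. Of the 50-base windows of Rps27rt transcripts, 91.1% also occur in Rps27, and Rps27rt had 15327, 14705 and 11660 counts against 139, 116 and 86 for Rps27. Gm15772 shares 74.3% of its windows with Rpl26 and had 19630, 19636 and 16583 counts against 3657, 3292 and 1989. Rpl34-ps1 shares 71.5% with Rpl34 and had 9946, 10041 and 7968 counts against 1907, 1798 and 1254. In each pair the copy held more counts than the parent gene in all 3 libraries, and how the reads were divided is not given in the sources used here. The sum of each pair does not depend on how the counted reads were divided, at 489 to 534 CPM for Rps27 with Rps27rt. Whether reads matching both genes were left out of the counts is not given either.

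The cells expressed Il9 at a level apart from every other interleukin gene. Of 35 interleukin genes, 15 were detected, or 42.9%, near the 46.6% of all symbols. Il9 alone made up 553, 533 and 521 of the summed 939.9, 909 and 872 CPM. Il13 followed and then Il2, the T cell growth factor, at 190.0, 185 and 96.1 TPM, which was lowest in library 3. The ranges of Il9, Il13 and Il2 did not overlap. Those of Il2 and Il5, and of Il5 and Ebi3 (64.9, 67.7 and 85.6 TPM), a subunit shared by IL-27 and IL-35, did. Il4 lay below Ebi3 in every library. Il1a, an alarmin, had 57.3, 33.6 and 23.7 TPM, more than 2-fold apart between libraries 1 and 3, and its range covered those of Il4 and Il16 (31.8, 34.5 and 41.2 TPM). Il3, a growth factor of blood cell precursors, followed at 22.5 ± 6.22 TPM, then Il12a at 16.4 ± 4.85 TPM and Il24 at 12.2 ± 5.61 TPM. Il1rn, the IL-1 receptor antagonist gene, had 9.54 ± 0.972 TPM and Il10, which restrains immune responses, 9.38 ± 1.32 TPM. The lowest of those detected were Il17d (4.18 ± 0.534 TPM) and Il6 (3.46 ± 0.692 TPM). Of the 20 not detected, 11 had no count in any library, Il18, Il22, Il25 and Il33 among them. Il21, a cytokine of follicular helper and Th17 cells, had 28, 34 and 27 counts and missed the limit in library 1 alone.

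Among the other cytokines, the macrophage migration inhibitory factor gene Mif was nearly as abundant as Il9, at 2967, 2995 and 3386 TPM. It lay below Il9 in every library, by the least in library 3. With the longest annotated transcript as the length the order turned, with Mif at a mean of 2822 and Il9 of 2636 TPM. Lif, of the IL-6 family, had 158, 205 and 270.0 TPM and was highest in library 3. Osm had 44.3 ± 1.34 TPM and Csf2, which encodes GM-CSF, 28.5 ± 8.07 TPM. 13 of 18 genes of TNF superfamily ligands were detected, above the share of all symbols. Lta, lymphotoxin alpha, led with 1027, 881 and 933 TPM, followed by its partner Ltb (276 ± 23.2 TPM), Tnfsf11, which encodes RANKL (234 ± 45 TPM), and Tnf (136 ± 18.4 TPM). The TPM of Lta was 6.02 to 8.09 times that of Tnf within a library. Tnfsf10 (TRAIL) stood at 61.4 TPM and Cd40lg, the CD40 ligand of helper cells, at 52.2 TPM.

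Chemokine genes were few and low. Of 36, 6 were detected, or 16.7%, and 17 had no count. At 2 CPM in every library 2 passed, Ccl3 and Ccl4. Ccl4 had 102, 91.8 and 51 TPM and Ccl3 88.1, 54.2 and 31.8 TPM. The range of Ccl3 overlapped that of Ccl4. Ccl17, Ccl20, Ccl22 and Ccl25 followed at 18.6 ± 7.63, 6.61 ± 3.25, 3.24 ± 1.11 and 0.878 ± 0.173 TPM. All 6 were lowest in library 3, and the summed level of the list was 55.6, 41.2 and 25 CPM. Over all genes of at least 10 CPM on average, 3644 of 8440 were lowest in library 3. Of the 6 chemokine genes that set holds Ccl3 and Ccl4 only. Ccl17, Ccl20 and Ccl22 averaged 2.64, 2.60 and 2.09 CPM, so the share is not a like background for them. Of growth factor genes 16 of 36 were detected. Hdgf had 728 TPM, Tgfb1 229.9, 219 and 221 TPM, Penk, which encodes proenkephalin, 127, 109 and 74.9 TPM and Vegfa 63.6, 82 and 94.2 TPM. Tgfb1 differed little between libraries, Penk was lowest and Vegfa highest in library 3. Areg, an epidermal growth factor relative made by some Th2 cells, had 2, 1 and 0 counts.

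Among 55 genes of secreted proteases, inhibitors, matrix and granule proteins, 32 were detected. B2m, the light chain of MHC class I, led with 1270 TPM, followed by the galectin gene Lgals1 (694 TPM), Pdia3 (430.0 TPM) and Srgn, the granule proteoglycan serglycin (256 TPM). Ctsz (236 TPM) and S100a10 (230.1 TPM) came next. The list also holds genes of proteins that mainly stay in the cell, Pdia3 and S100a10 among them. Cytotoxic granule genes were low. Gzmb, granzyme B, had 6.20, 10.3 and 14 CPM, Gzma 6, 1 and 0 counts and Prf1 5, 1 and 2 counts, while Gzmd, Gzme and Gzmg were at 0.

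**Figure D3:**
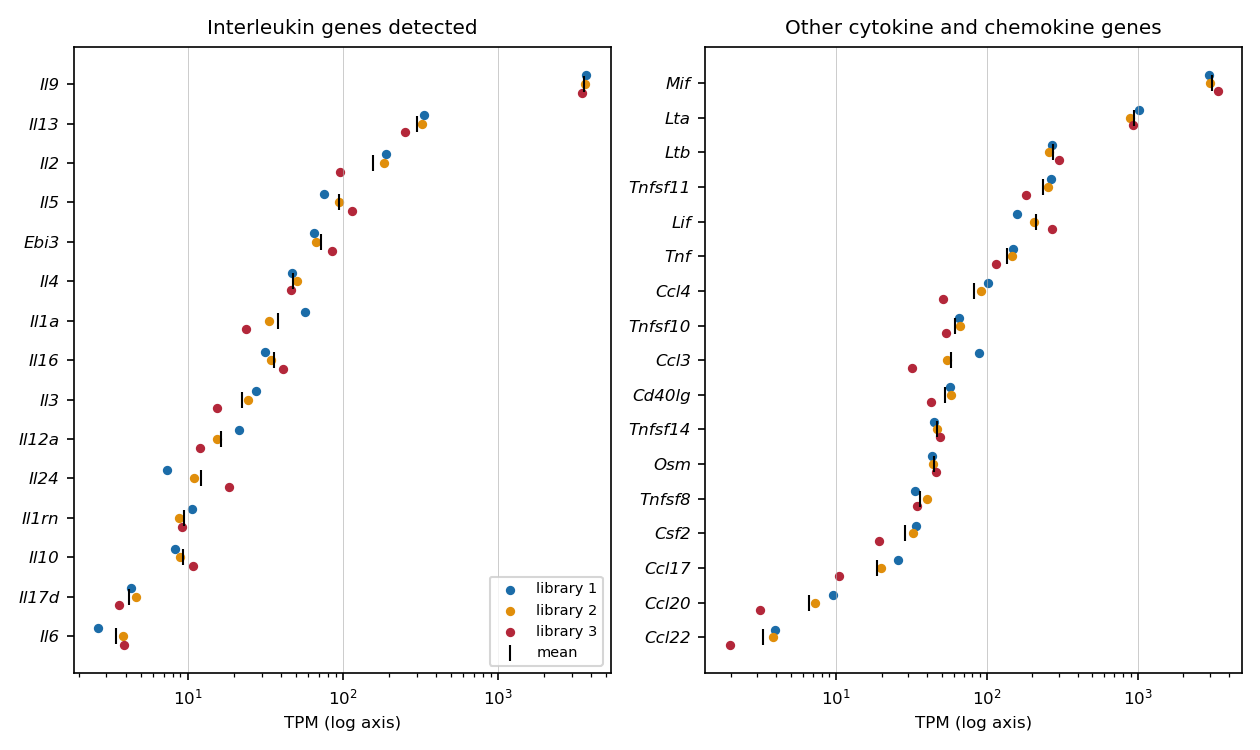
TPM (log axis) of the 15 detected interleukin genes (left) and of leading TNF ligand, colony stimulating factor and chemokine genes (right) in each control library, with a black bar at the mean. Il9 stands more than 10-fold above Il13 in every library, and the chemokine genes Ccl3, Ccl4, Ccl17, Ccl20 and Ccl22 are lowest in library 3.

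Receptors for IL-2 dominated the cytokine receptors. Il2ra, the high-affinity alpha chain that activated T cells acquire, had 1681, 1806 and 1857 TPM, rank 77. The shared chains Il2rb and Il2rg had 473, 499 and 557 and 396, 364 and 311 TPM. The TPM of Il2ra was 3.34 to 3.62 times that of Il2rb and 112 to 136 times that of Il7r, the receptor chain of resting T cells. Library 3 was high for Il2ra and Il2rb and low for Il2rg. Il4ra, which receives the IL-4 of the culture, had 282, 278 and 284 TPM with little spread, and Tgfbr1 and Tgfbr2, which receive TGF-beta, 62.5 ± 3.42 and 23.5 ± 1.97 TPM. Il21r (161 TPM) and Il12rb1 (108 TPM) completed the leading 6. 36 of 54 cytokine receptor genes were detected. Il9r, the receptor for IL-9, was among them at 4.81, 3.76 and 5.64 CPM. Il1rl1 (IL-33), Il17rb (IL-25) and Il1r1 (IL-1) had 8, 10 and 3, 15, 8 and 5 and 9, 9 and 3 counts.

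Costimulatory receptors were detected in full, 13 of 13. Tnfrsf4, which encodes OX40, led with 821, 892 and 1075 TPM, followed by Tnfrsf18 (GITR) at 392, 449.7 and 592 TPM and Tnfrsf9 (4-1BB) at 213, 265 and 399 TPM. All 3 were highest in library 3 and lowest in library 1, while of the 13 detected costimulatory genes 6 were highest and 5 lowest in library 3. Icos had 117 ± 2.02 TPM and Cd28 55.8 ± 2.84 TPM. Among coinhibitory receptors 13 of 17 were detected. Ctla4, which competes with CD28 for its ligands, had 438, 618 and 944 TPM, highest in library 3 and lowest in library 1. Most of the list went the other way, with 3 of the 13 detected genes highest and 9 lowest in library 3. Over all 8440 genes of at least 10 CPM on average, a set chosen by level, 3394 were highest and 3644 lowest there. Btla (167 ± 15.1 TPM), Cd200 (152 ± 7.97 TPM) and Pdcd1, which encodes PD-1 (93.1 ± 24.2 TPM), were lower. Pdcd1lg2 and Cd274, the ligands of PD-1, had 48.8 and 63.8 CPM. Over the whole TNF receptor superfamily 18 of 25 were detected, with a summed level of 866, 937 and 1193 CPM, highest in library 3. Havcr2, the TIM-3 gene, was at 0.567 CPM and not detected.

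Of 22 chemokine receptor genes, 6 were detected (27.3%), and a pair of them led. Ccr4 had 435, 431 and 397 TPM and Ccr8 415, 411 and 436 TPM, both typical of Th2 cells and of skin homing, and their ranges overlapped. Ccr7, which guides cells to lymph nodes, had 154, 178 and 239 TPM, and Cxcr4 and Ccr6 30.4 ± 13.7 and 30.1 ± 3.62 TPM. Cxcr2 was the lowest of those detected at 2.21 TPM. 14 of 26 integrin genes were detected, led by Itgal and Itgb2, the chains of LFA-1 (331 ± 11.7 and 306 ± 11 TPM). Itgb1 (216 TPM), Itgb7 (66.7 TPM) and Itgb3 (41 TPM) followed. Further surface genes of high level were Bsg, basigin (797 TPM), Thy1 (574 TPM), Cd2 (472 TPM), Cd53 (436 TPM), Cd82 (369 TPM) and Spn (268 TPM). The T cell receptor chains Cd3d, Cd3e and Cd3g had 196, 91.8 and 86.8 TPM. All 22 nutrient transporter genes were detected, among them the transferrin receptor gene Tfrc (792 TPM), the leucine transporter gene Slc7a5 (647 TPM) and the glutamine transporter gene Slc1a5 (313 TPM). The list also holds Slc25a5, which encodes an ADP/ATP carrier of the mitochondrial inner membrane and not a surface protein. Lipid and proton-sensing receptors numbered 20 of 29 detected, led by P2ry10 (163 TPM), Gpr132 (75.4 TPM) and Ptger4 (68.7 TPM).

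Transcription factor genes of the AP-1 family stood beside Irf4 at the top. Junb had 898, 1019.7 and 1214 TPM and Jund 1132, 1041 and 958 TPM, close to Irf4 on average. Junb was highest and Jund lowest in library 3. Atf4, the factor of the amino acid response, had 789 ± 38.8 TPM. Batf and its relative Batf3 (135 ± 14.1 TPM) differed by 1.61-fold to 1.73-fold within a library, and Batf2 had 0, 2 and 0 counts. 30 of 34 genes of this list and 8 of 9 IRF genes were detected, Irf7 being the exception at 0.269 CPM. Among STAT genes, Stat5a (227 ± 8.67 TPM) and Stat5b (226 ± 28.4 TPM), which act behind IL-2, and Stat6 (212 ± 7.71 TPM), which acts behind IL-4, overlapped in range. Stat3 followed at 135 ± 22.8 TPM, with Stat4 at 25.9 TPM.

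Gata3 was the one GATA gene detected, with its cofactor Zfpm1 (70.0 TPM). Spi1, which encodes PU.1, a factor known to promote Il9 in Th9 cells, had 1, 2 and 0 counts in the 3 libraries. So few counts give no reliable level. Spi1 was the one gene not detected among 32 Th9 transcription factors, whose median was 67.1 TPM. Its relative Spib had 7, 5 and 7 counts. Among ETS factors Ets1 led with 230.1 ± 23.2 TPM. The NF-kappaB genes Nfkb2 and Nfkb1 had 334 and 257 TPM and their inhibitor Nfkbia 488 TPM. SMAD genes were lower, Smad4, Smad3 and Smad2 at 61.6, 31.7 and 25.7 TPM, beside the SMAD repressors Ski (106 TPM) and Skil (64.2 TPM). Myc had 488 ± 14.7 TPM, Tfdp1 368 ± 28.7 TPM and Srebf2, the factor of cholesterol synthesis, 271 ± 10.2 TPM. Bhlhe40, which supports cytokine production in activated T cells, had 325, 398 and 445 TPM, and the orphan nuclear receptor gene Nr4a3 258 ± 20.9 TPM. In the families of RUNX, FOX, KLF and TCF factors 31 of 32 genes were detected, led by Tcf3 (189.6 TPM) and Cbfb (189 TPM), and among nuclear receptors 23 of 28. Ikzf1 stood at 259.8 TPM and Prdm1, which encodes Blimp-1, at 20, 13 and 23 counts.

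**Figure D4:**
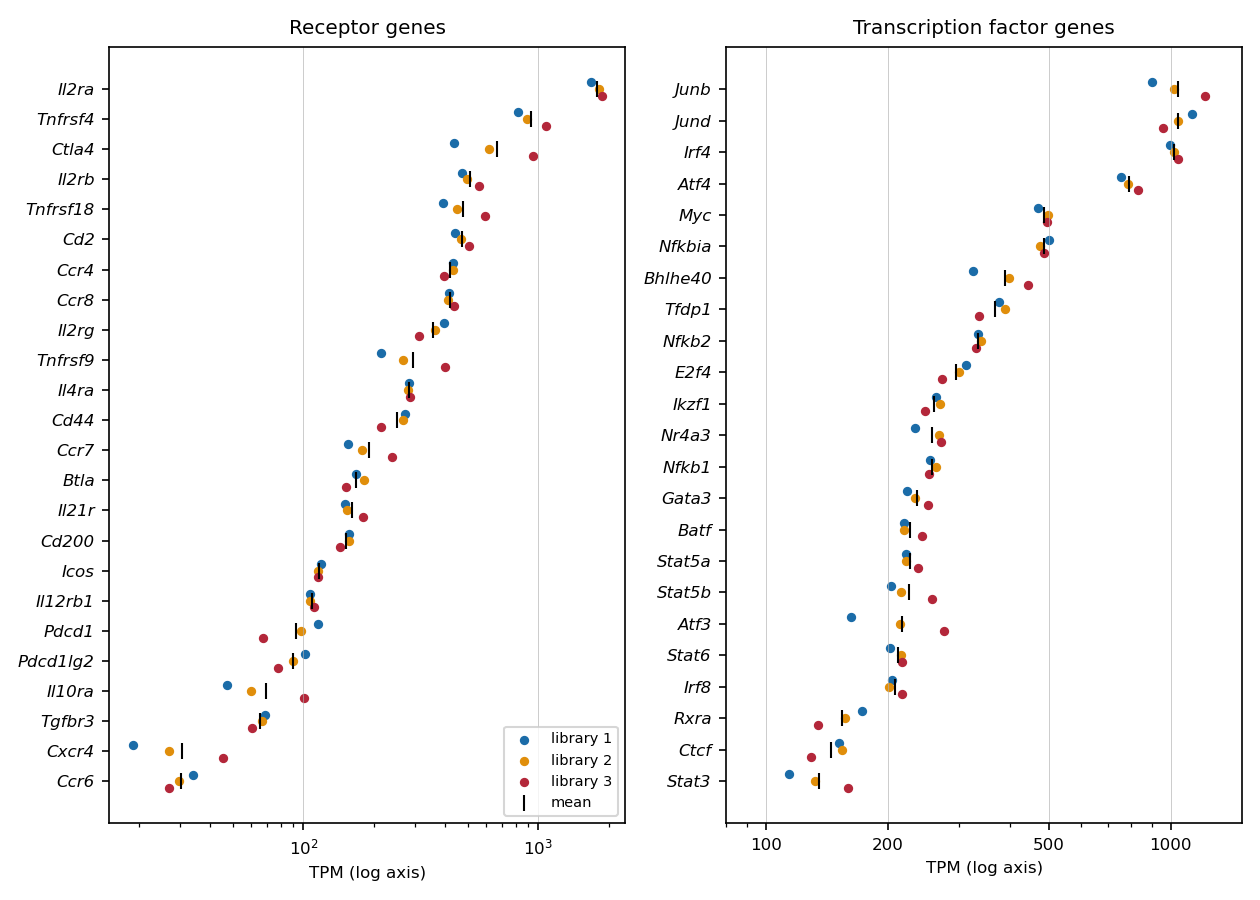
TPM (log axes) of the leading receptor genes (left) and transcription factor genes (right) in each control library, with a black bar at the mean. Il2ra leads the receptors at 1782 TPM, Junb, Jund and Irf4 lead the factors near 1000 TPM, and Ctla4, Tnfrsf9, Il10ra and Atf3 spread widely with library 3 highest.

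Signalling genes of the culture's inputs were detected nearly in full. 15 of 15 genes of Janus kinases, SOCS proteins and PIM kinases were present, with Jak2 (368 TPM), Pim1 (252 TPM) and the STAT5-induced inhibitor Cish (207 TPM) ahead. 27 of 28 genes of T cell receptor signalling were detected, led by the kinase gene Lck (510.4 TPM), the adaptor gene Lcp2 (392 TPM) and the phosphatase gene Dusp4 (343 TPM). Of cell cycle genes 38 of 40 were detected, Pcna (787 TPM), Mki67 (573 TPM), Rrm2 (536 TPM) and Ccnd2 (486 TPM) in front. Ccnd1 was at 0.625 CPM and Cdkn2a at 0, 1 and 1 counts. 22 of 22 genes of cell survival and death were detected, headed by Mcl1 (229 TPM) and Bcl2l1 (228 TPM).

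Glycolysis genes were high in every library and highest in library 3. All 18 were detected, with a median of 413 TPM. Pgk1 had 3003, 3394 and 4154 TPM, Ldha 2946, 3226 and 3448 TPM and Pkm 2346, 2657 and 3087 TPM. The summed level was 19644, 21232 and 24911 CPM, and 17 of 18 genes were highest in library 3. Cytosolic ribosomal protein genes (83 of 86 detected) summed to 76517, 74594 and 80685 CPM and respiratory chain genes (85 of 92) to 10032, 9686 and 10002 CPM. Of the detected ribosomal protein genes 69 were highest and 6 lowest in library 3, and of the respiratory chain genes 34 and 29. Over all 8440 genes of at least 10 CPM on average, 3394 were highest and 3644 lowest in library 3. Replication histone genes, whose messages lack a poly(A) tail, were low, with 23 of 68 detected and a sum of 76.7, 78.7 and 128 CPM, again highest in library 3. Their number moved with the limit, to 36 at 0.5 CPM and 8 at 2 CPM. Among noncoding RNA genes Malat1 (386 TPM), Gas5 (178 TPM) and Snhg6 (115 TPM) followed Xist. The microRNA host genes Mir17hg and Mir155hg had 85.3 and 83 TPM.

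Most genes differed little among the 3 cultures. Over the 8440 genes of at least 10 CPM on average the median CV was 5.67%, of which counting alone gives a median of 2.66%. The excess CV, what remains after counting error is taken off, had a median of 4.82%, and 1416 genes (16.8%) had none. Library 3 carried much of it, since the median was 1.94% without library 3. Excess CV passed 20% in 274 genes (3.25%). The named genes of smallest CV were Msl1 (109, 109 and 109 CPM), Zbtb43, Dhcr7, Pus3 and Traf4, taken by CV since many genes had no excess. Their CVs were 0.0622% to 0.147%, within counting error. As the lowest picked from so many genes, they cannot be called steadier than the other genes without excess.

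The gene of largest spread was Eif3j1, a subunit of an initiation factor, with 2272, 581 and 3 counts. Its near-copy Eif3j2, which holds 90.8% of its windows in common with Eif3j1, had 5008, 7073 and 4649 counts, and the pair summed to 247, 253 and 211 CPM. The other 14 genes of largest excess were all highest in library 3. Those of highest level were Tgm2, transglutaminase 2 (102, 152 and 359 CPM), and Slc2a3, the glucose transporter GLUT3 (105, 162 and 347 CPM). Selenbp1 had 4.71, 7.96 and 29.6 CPM and Basp1 9.82, 14 and 47 CPM. Itga7, Muc2, Mt2, Espn, Aldh1l2, Rpph1, Plcxd1, Ppp1r3b, Aldoc and Klhl24 had an excess CV between 51.7% and 82.5%. The most abundant gene more than 2-fold away in library 3 was Ero1l, an oxidase of protein folding, at 543, 724 and 1290.2 CPM. Ndrg1 (40.0, 57.7 and 103 CPM), the cytokine signalling inhibitor Socs3 (18.9, 25.6 and 45.7 CPM) and Unc13a (19.2, 22.7 and 43.9 CPM) also lay that far above. Library 3 was below the others by that margin in Wdr73 (63.3, 63 and 30.7 CPM), Ccl3 and Eif3j1. In library 1 the genes more than 2-fold above were Eif3j1, Il1a (31.4, 18.2 and 13 CPM) and Ccl3, and 13 were below, all of which were also above in library 3. No gene was that far above in library 2. Its 5 genes below were Eif3j1, Basp1, Rpph1, Selenbp1 and Muc2. Of the Th9 markers, none was 1.5-fold away in any library, at 0.960, 1.04, 1.11 and 1.12 times the mean of libraries 1 and 2 in library 3 for Il9, Irf4, Gata3 and Batf.

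**Figure D5:**
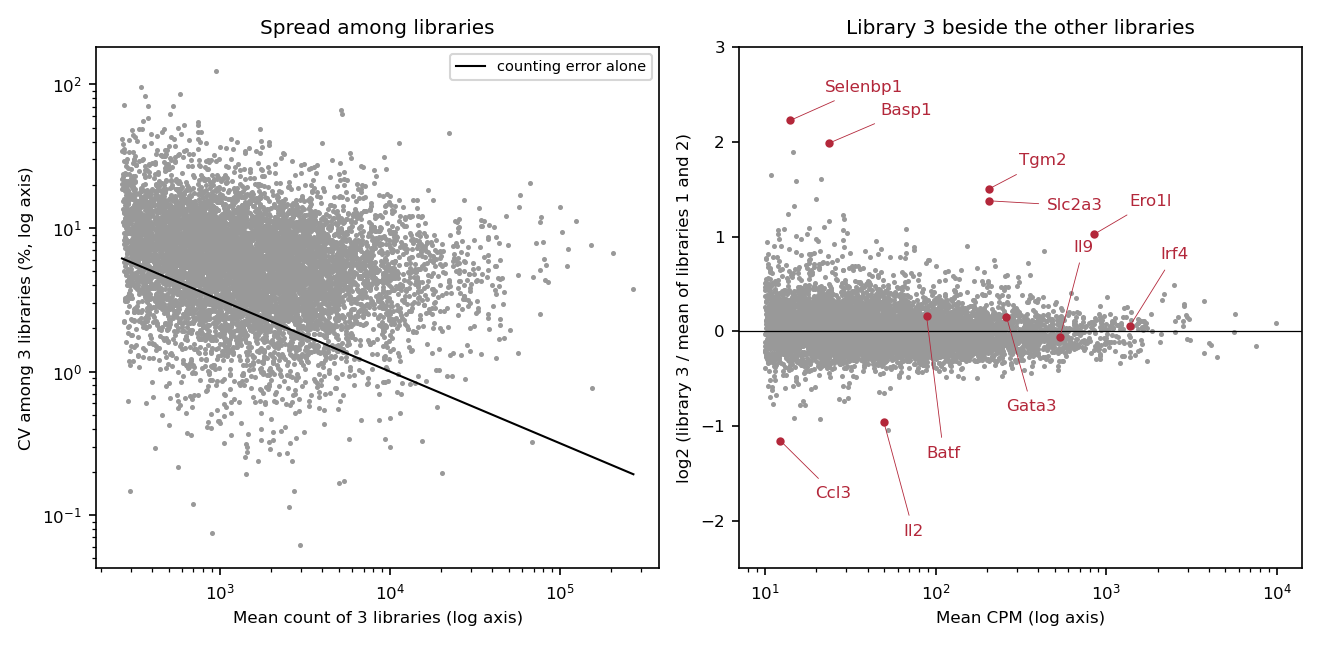
Left, CV among the 3 control libraries against the mean count for genes of at least 10 CPM on average, both axes logarithmic, with the line that counting error alone gives. Right, log2 ratio of library 3 to the mean of libraries 1 and 2 against mean CPM (log axis), 0 marking no difference; Eif3j1 lies below the axis. Most genes lie above the counting line, the Th9 markers lie near 0, and Tgm2, Slc2a3, Basp1, Selenbp1 and Ero1l lie more than 2-fold above it.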

How the data were processed

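RNA from 3 control Th9 cultures (1.3 µg of total RNA each) was made into libraries with a directional RNA-seq kit, per the labels' protocols. The authors deposited raw counts of reads per gene symbol. TopHat and the mm10 build are named in the submitters' processing notes, while its version, the read counter, the gene models and the use of strand in counting were not given in the sources used here. If strand was ignored, an antisense gene and its overlapping partner share their reads. Mitochondrially encoded genes and constant segments of antigen receptor genes were not analysed here.

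Each library was scaled to a total of 1000000, which gives CPM. Gene models of GENCODE M21, on the same assembly as mm10, were joined by symbol, 22156 directly and 664 through a RefSeq synonym, which is 98.43% of them. The unmatched symbols held 0.129% to 0.139% of the counts. TPM used the union of a gene's annotated exons as its length. Excess CV is the square root of CV squared less the inverse of the mean count, set to 0 where negative, over genes of at least 10 CPM on average. The calculation was tested on simulated data. edgeR 4.0.16 in R 4.3.3 gave the trimmed mean of M values (TMM) factors and a common biological coefficient of variation as alternatives, and Python 3.11.15 was used otherwise. Copies were compared by 50-base windows of GENCODE transcripts. No test between groups was made, so no p-value is given.

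Genes named are the Th9 markers, the defining genes of other programs, the 20 highest by TPM and by CPM, the leading members of each list (up to 6) and its members under 1 CPM that define another type, the 15 of largest and 5 of smallest excess spread without predicted genes, and up to 10 genes a library more than 2-fold away from the others. Further members named in the report were chosen after their values were seen. The 64 gene lists and the libraries described were chosen with earlier results of these data known. A few genes of the lists are not reported here.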

Additional observations from a re-analysis of the deposited data

How the results depend on the processing

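The number of genes detected stayed within 1.5 times of 10810 under every alternative run, which were limits of 0.5 and 2 CPM, at least 10 counts in every library, TMM-scaled CPM, a total without the 10 most counted genes, and leaving out each library. Of the genes on any list 69.9% were detected, and 66.5% at 2 CPM. Over all symbols the share was 46.6%, and 43.9% at 2 CPM. A stricter limit can only lower both shares. The median excess CV of 4.82% was 1.94% to 5.51% when 1 library was left out, lowest without library 3. The common biological coefficient of variation from edgeR was 8.55%, and 4.40% without library 3. Without the 10 most counted genes in the total, Il9 stood at 565.2 and Irf4 at 1456 CPM, against 535.9 and 1380.1. With the longest annotated transcript as the length, Il9 stood at 2636 TPM (rank 46), Irf4 at 763.7, Gata3 at 213.2 and Batf at 244.1 TPM, which puts Batf above Gata3. The other values of the 4 markers moved by less than their SD. With that length the median TPM of 33 of 64 lists moved by more than its SD, 21 lists being higher and 39 lower. No paired analysis was possible because no result comes from a test between groups. The depth of 22002050 to 30292992 counts limits genes near 0, where a count of 0 allows up to 3 counts for counting error. A few counts give no reliable level.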

Other observations

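Lars2, the mitochondrial leucyl-tRNA synthetase gene, had 2175, 2238 and 3103 CPM, which placed it among the 22 genes with the most counts. Per length it reached 816 TPM, against 6.39 to 62.3 TPM for the 16 genes of other mitochondrial aminoacyl-tRNA synthetases, and its cytosolic counterpart Lars lay 3.53 to 4.46 times lower within a library. It was highest in library 3. The gene was chosen after its values were seen, and the origin of its reads was not tested.

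Several genes that are usual in effector T cells were nearly without counts at this depth. S100a4 had 5, 5 and 0 counts, S100a6 4, 7 and 5, Anxa1 8, 5 and 5, Cd63 6, 11 and 11 and Ly6a 10, 18 and 3. Their relatives S100a10 (77.2 CPM), Anxa2 (91.2 CPM), Cd82 (307 CPM) and Ly6e (37.6 CPM) were detected in the same libraries. These genes were named after their values were seen.

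The noncoding RNA genes Rmrp and Rpph1, which lie outside the poly(A) messages, differed between libraries in the same order of libraries. Rmrp had 80, 36 and 420 counts and Rpph1 338, 252 and 543 counts, both lowest in library 2 and highest in library 3. Replication histone genes were highest in library 3 as well, with 20 of 23 detected members. Many of these lay near the limit, as 8 passed 2 CPM in every library. Over all genes of at least 10 CPM on average, 3394 of 8440 were highest in library 3. Whether these differences share a source was not tested.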
